A study of Mus musculus with 12 samples.

Results

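Mouse embryonic stem cells that lack a regulatory region of Tcf15 were compared with wild-type cells after 12 h of induction towards the epiblast-like state. The comparison uses 4 of the 12 RNA sequencing libraries of the study, 2 of each genotype, and covers the 13981 tested genes of the 47729 in the deposited table. Both genotypes are of the E14Tg2a line (strain 129/Ola). Wild-type cells are called WT here, and delta stands for the cells labelled delta 0.7, in which 674 bp on chromosome 2 (152177049 to 152177722, mm10) are missing from both alleles. All 4 samples came from cells kept in serum-free 2i medium with LIF and then plated for 12 h in N2B27 medium with KOSR, bFGF and Activin on a coat of fibronectin. The 8 libraries at 0 h (2i with LIF) and at 24 h of the same treatment enter only as a comparison and for the spread of the model. Column names give only 1 clone of the deleted line, so the deletion and the clone cannot be told apart. Whether the 2 replicates of a group were separate cultures is not stated, so p-values measure no more than the spread between these libraries, and that spread may be technical.

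Tcf15 encodes a basic helix-loop-helix transcription factor that binds DNA as a dimer with ubiquitous E proteins, and the Id proteins block such dimers by capturing the E protein. In the early embryo it is known from the epiblast and later from the somites, and in stem cell cultures it marks cells on the way out of naive pluripotency. When 2i and LIF are withdrawn and Activin and FGF are supplied, naive genes are turned down and formative genes such as Otx2, Pou3f1 and Fgf5 are turned on over the following days.

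Values are FPKM as the authors deposited them, that is fragments per kilobase of exon scaled to a size given to each library. Differences are delta minus WT on the log2(FPKM + 1) scale, which understates the change of low genes. A gene was called at a Benjamini-Hochberg adjusted p under 0.05 in limma, and pair 1 and pair 2 are the differences between libraries with the same replicate number. The 12 h libraries held 9740851 to 16700932 recovered reads, and WT replicate 2 was the shallowest. At 12 h the size used for scaling was 102% to 104% of the recovered reads. At 0 h it ran from 75.5% in delta replicate 1 to 100% in delta replicate 2. WT replicate 2 at 12 h had 1.24% of its reads on rRNA genes, against 0.0709% to 0.293% in the other 12 h libraries. Mitochondrial protein genes took 0.549% and 0.584% of reads in the replicate 1 libraries and 1.67% and 1.69% in the replicate 2 libraries. The pluripotent identity of the cells was visible in each 12 h library: Pou5f1 stood at 667 to 734 FPKM, Sox2 at 302 to 342 and Nanog at 191 to 198. Marker sums of primitive endoderm, trophoblast, neural and mesoderm cells were each at or below 1.53 FPKM. A sum of 10 fibroblast or myofibroblast markers was 49.1 FPKM in WT replicate 1, 5.16 in WT replicate 2, and 2.99 and 6.596 in delta. Most of the delta sums came from 1 marker, Thy1, at 2.31 and 4.81 FPKM. Thy1 stood at 6.69 in WT replicate 1 and 0.981 in WT replicate 2.

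At 12 h the genotypes differed little across the transcriptome, apart from Tcf15 and Mest. The median difference over the tested genes was 0.01 log2 units, with quartiles of −0.10 and 0.12. Of the 13981 genes, 95.1% lay within 0.5 and 99.3% within 1 log2 unit. With limma, 2 genes were called lower in delta (0.0143% of those tested) and 0 were called higher (0.0%). At an unadjusted p under 0.05, limma counted 70 genes higher (0.501%) and 54 lower (0.386%), and after centring each library on its median the counts were 59 and 69. If no gene differed, a share of 0.05 would be expected, so the test was conservative here. A lack of calls, also in the lists below, is therefore weak evidence of no difference. Without the 0 h libraries the counts were 269 and 261. The SD over genes between replicates at 0 h was 0.660 log2 units in WT and 0.834 in delta. The voom fit on recovered reads, an alternative added after the data were seen, called 0 higher and 1 lower, with 45 and 38 genes at an unadjusted p under 0.05.

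The pairs of libraries agreed only weakly. Across the 13981 genes, which are not independent replicates, the pair 1 and pair 2 differences at 12 h had a Pearson correlation of 0.12 and a Spearman correlation of 0.12. The WT replicates were farther apart than the genotypes within a pair: the SD over genes was 0.416 log2 units between the WT replicates and 0.312 between the delta replicates, against 0.296 in pair 1 and 0.370 in pair 2. Both pairs were higher in delta for 4040 genes (28.9%) and lower for 3415 (24.4%). The groups did not overlap for 2352 higher genes (16.8%) and 2128 lower genes (15.2%). Very few genes reached a 2-fold difference in both pairs, with 14 higher (0.1%) and 11 lower (0.0787%). Short noncoding genes made up 12 of the 14 and 8 of the 11, and 1 and 3 genes were protein coding.

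**Figure D1:**
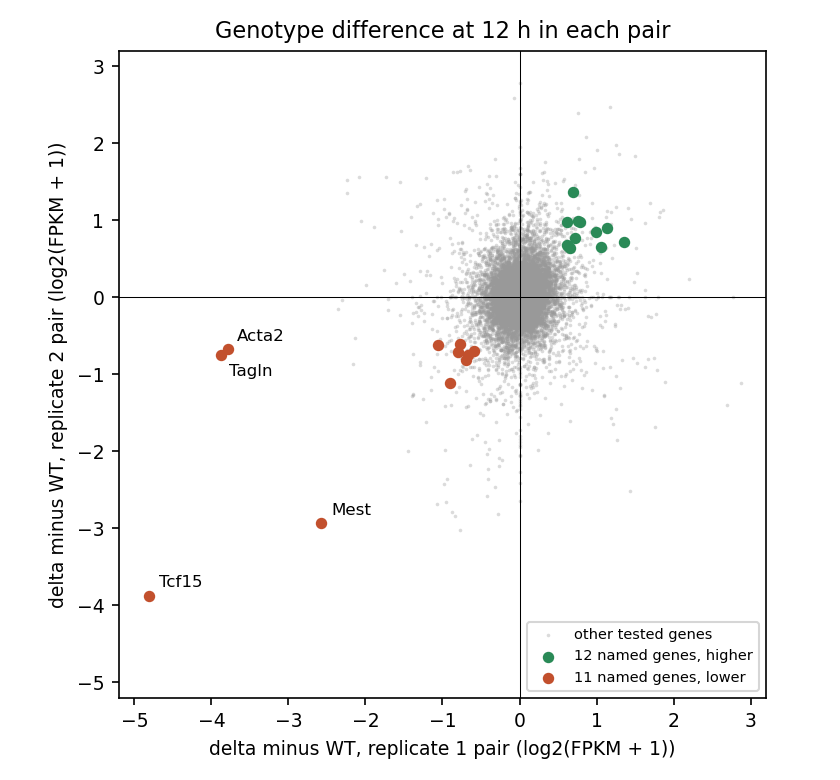
Difference between delta and WT at 12 h in the replicate 2 pair (vertical axis) against the replicate 1 pair (horizontal axis), both in log2(FPKM + 1), with 1 point for each of the 13981 tested genes. Tcf15 and Mest lie far below 0 in both pairs, whereas the bulk of the genes forms a cloud around 0 in which the pairs have a Pearson correlation of 0.12.

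Tcf15 (ENSMUSG00000068079, chromosome 2, 152143561 to 152149097, plus strand, mm10) was the gene with the largest fall. It stood at 57.1 and 28.8 FPKM in the WT libraries at 12 h and at 1.06 and 1.04 FPKM in the delta libraries. Both WT values lay far above both delta values, although the WT replicates themselves differed widely. The delta values rest on 13 and 14 recovered reads, against 974 and 282 in WT. The means were 43.0 ± 20.02 FPKM in WT and 1.05 ± 0.0197 FPKM in delta (SD, n = 2 each), so delta held 2.44% of the WT level. The difference was −4.82 in pair 1 and −3.87 in pair 2, and −4.34 ± 0.47 (SE) in the model. In the main model, which has no replicate block, this difference passed in limma with an adjusted p of 0.047. With the replicate number as a block the limma adjusted p was 0.0014. The main call and the fits with libraries left out, given next, are without the block. The call was close to the threshold: leaving out single libraries gave adjusted p-values of 0.027 to 0.72, and the call held only without WT 0 h replicate 1 or WT 0 h replicate 2.

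The Tcf15 difference was smaller before induction and about as large at 24 h. At 0 h the gene stood at 9.16 and 3.45 FPKM in WT and at 2.16 and 1.05 in delta. At 24 h it stood at 99.4 and 55.4 FPKM in WT and at 4.44 and 2.76 in delta. The delta libraries thus lay below the WT libraries at each of the 3 times. Compared with 0 h, the 12 h difference was larger by −2.94 ± 0.67 log2 units (SE), with an unadjusted p of 0.0017 and a limma adjusted p of 1. From 12 h to 24 h the difference moved by 0.29 ± 0.67 (adjusted p of 1).

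**Figure D2:**
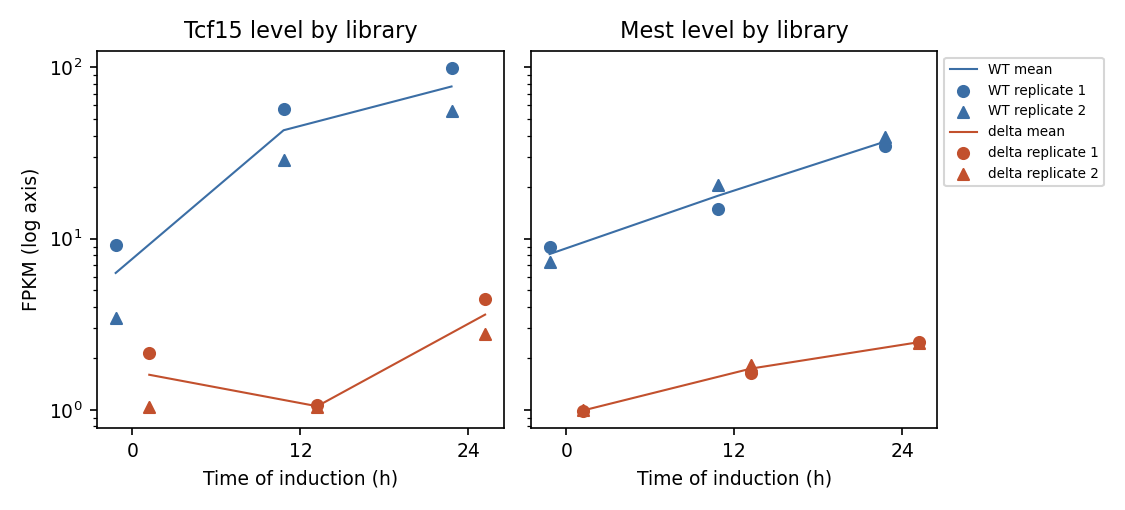
FPKM (vertical, log axis) of Tcf15 and Mest in each library at 0, 12 and 24 h (horizontal axis), with WT in blue, delta in red and offset sideways, circles for replicate 1, triangles for replicate 2 and lines through the means of the 2 libraries. Every delta library lies below both WT libraries of its time, and at 12 h both delta libraries lie near 1 FPKM for Tcf15.

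Apart from Tcf15, genes next to the deletion held no call. The deleted stretch begins 33.5 kb from the start of Tcf15 and lies 27.95 kb beyond its end. The 14 other tested genes within 500 kb had a median 12 h difference of −0.09 log2 units. Limma called none of them, 1 of them had an unadjusted p under 0.05, and the voom fit called none. On the higher side groups did not overlap for 1 of the 14, against 16.8% of all tested genes. On the lower side they did not overlap for 4 of the 14, a larger share than the 15.2% of all tested genes. The 4 were Csnk2a1, a catalytic subunit of casein kinase 2 (−0.09), Srxn1, a sulfiredoxin (−0.31), Tbc1d20, a Rab GTPase-activating protein (−0.40), and Trib3, a stress-induced pseudokinase (−0.28). The lowest value was that of the riboflavin transporter gene Slc52a3 (−0.51), whose groups overlapped. The higher gene, Gm27343, is a small nuclear RNA with 0 reads in both WT libraries and 2 and 1 reads in delta, too few for a fold. Rps15a-ps7, a ribosomal protein pseudogene and the closest tested gene at 7.57 kb, was at 0.32 in pair 1 and −1.31 in pair 2.

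Mest (ENSMUSG00000051855, chromosome 6, 30723547 to 30748465, plus strand, mm10) was the other gene that fell. It encodes a putative hydrolase of the endoplasmic reticulum and is imprinted, with expression from the paternal allele. Its level at 12 h was 14.8 and 20.7 FPKM in the WT libraries and 1.65 and 1.84 FPKM in the delta libraries. The groups lay far apart and the replicates of each group close together. The values rest on 1017 and 816 recovered reads in WT and on 81 and 100 in delta. Delta held 9.81% of the WT level (17.8 ± 4.17 FPKM in WT, 1.74 ± 0.136 in delta, SD, n = 2 each). The difference was −2.58 in pair 1, −2.94 in pair 2 and −2.76 ± 0.20 (SE) in the model, with a limma adjusted p of 0.0025. The call did not hold when delta 12 h replicate 2 was left out (−2.81, adjusted p of 0.068), and it held without each of the other 11 libraries in turn (adjusted p of 0.0046 to 0.045).

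Unlike Tcf15, Mest was already called in naive cells. At 0 h it stood at 8.98 and 7.28 FPKM in WT and 0.989 and 0.996 in delta, a difference of −2.19 (limma adjusted p of 0.018). At 24 h it stood at 34.7 and 39.1 FPKM in WT and 2.502 and 2.47 in delta, a difference of −3.44 (limma adjusted p of 3.6e-04). In both genotypes the level was thus higher at each later time. The difference at 12 h exceeded that at 0 h by −0.57 ± 0.28 log2 units (SE), and that at 24 h exceeded that at 12 h by −0.68 ± 0.28, each with a limma adjusted p of 1.

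RefSeq (GRCm38.p6) lists 3 starts for Mest. The sequence below shows the CpG-rich stretch of 250 bases before the start of 1 of them, chr6:30737800-30738049 on the plus strand, because imprinted promoters carry DNA methylation at CpG sites. Methylation was not measured here. Capitals mark the 14 CpG dinucleotides. Of 32851 RefSeq promoter windows of the same length, 29.4% hold as many CpG sites, and the median window holds 6.
Mest: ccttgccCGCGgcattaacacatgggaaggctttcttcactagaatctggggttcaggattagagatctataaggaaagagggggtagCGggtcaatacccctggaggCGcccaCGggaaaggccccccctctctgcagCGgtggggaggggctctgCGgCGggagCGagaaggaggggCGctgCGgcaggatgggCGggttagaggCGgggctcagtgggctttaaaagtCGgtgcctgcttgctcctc

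Limma called no other imprinted gene at 12 h. Of 9 tested paternally expressed genes, only Mest was called, 6 lay below 0, and the median difference was −0.11 (−0.27 in pair 1 and −0.22 in pair 2). Peg10, a retrotransposon-derived gene of placental development, stood at 25.8 and 25.7 FPKM in WT and at 11.9 and 16.3 in delta, with no overlap (−0.84 ± 0.44, limma adjusted p of 1). At 24 h its pair 2 pointed the other way, at 0.47. Igf2, a fetal growth factor, read 3.59 and 0.805 FPKM in WT and 0.042 and 0.254 in delta. Plagl1, a zinc finger factor, read 0.471 and 5.06 in WT and 0.103 and 0.186 in delta, so in each of these genes only 1 WT library was high. Snrpn, a splicing protein gene, was higher at 58.3 and 52.0 FPKM in delta against 47.6 and 42.3 in WT. The 12 tested maternally expressed genes had a median of 0.16, 8 above 0, and limma called none of them, with none at an unadjusted p under 0.05. Cdkn1c, a cyclin-dependent kinase inhibitor, stood at 14.2 and 6.48 FPKM in WT and 18.1 and 13.3 in delta, and these groups overlapped. Copg2, a coatomer subunit gene that overlaps the end of Mest on the opposite strand, stood at 17.8 and 19.4 FPKM in WT and 15.5 and 14.4 in delta (−0.30 ± 0.17). The sources used here do not say whether reads were counted by strand, so reads of Mest and Copg2 cannot be told apart where they overlap.

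Past Tcf15 and Mest, no gene passed the test, and the values that follow are differences that held in both pairs. Genes were ranked by the smaller of their pair differences, among those whose groups did not overlap and whose mean reached 5 FPKM in the higher group. On the higher side the 12 leading genes were Mup6, Ap1m2, Ephx1, Efs, Ptp4a3, Snord53, Fah, Mgmt, Ddit4, Sord, Galnt6 and Rragb. In the model without a replicate block, Ap1m2, Ephx1 and Efs had an unadjusted p under 0.05, and with the block 7 of the 12 did, each with a limma adjusted p of 1 in both fits. Of the 12, 10 pointed the same way in all 4 pairs of 0 and 24 h, compared with 25.9% of the non-overlapping higher genes. That 25.9% covers tested genes of any level and any size of difference, whereas the 12 were chosen by both. The shares are therefore not like for like.

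Several of the leading higher genes encode enzymes. Ephx1, the microsomal epoxide hydrolase that detoxifies reactive epoxides, stood at 5.66 and 6.01 FPKM in WT and 10.5 and 12.8 in delta. Its difference was 0.88 ± 0.21 (SE), with an unadjusted p of 0.0025 and a limma adjusted p of 1. Fah, the last enzyme of tyrosine breakdown, stood at 5.94 and 2.89 FPKM in WT and 10.2 and 9.06 in delta. Sord, which oxidises sorbitol to fructose, stood at 3.86 and 3.75 in WT and 6.55 and 6.51 in delta. Mgmt, which removes alkyl groups from guanine in DNA, stood at 6.68 and 8.57 in WT and 15.005 and 14.1 in delta. Galnt6, a glycosyltransferase that starts mucin-type O-glycans, stood at 2.88 and 3.78 in WT and 4.95 and 6.65 in delta. All 5 had a limma adjusted p of 1.

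The remaining higher genes have varied roles. Ap1m2, the epithelial mu subunit of a clathrin adaptor, stood at 7.41 and 7.15 FPKM in WT and 15.7 and 13.7 in delta (0.92 ± 0.37, unadjusted p of 0.033). Efs, a docking protein of the Cas family, stood at 3.57 and 3.59 in WT and 6.76 and 8.09 in delta (0.87 ± 0.29, unadjusted p of 0.014). Efs lies in the chromosome 14 segment described further on. Ptp4a3, a phosphatase, stood at 4.93 and 7.16 in WT and 8.77 and 12.9 in delta. Ddit4 and Rragb both act on mTORC1, Ddit4 as a stress-induced inhibitor and Rragb as a Rag GTPase of amino acid sensing. Ddit4 stood at 17.9 and 22.4 FPKM in WT and 28.8 and 35.4 in delta, and Rragb at 12.3 and 5.94 in WT and 19.3 and 12.7 in delta. Mup6, a major urinary protein gene, stood at 4.48 and 4.31 in WT and 11.1 and 8.92 in delta, but its family has near-identical copies whose reads may be shared. Snord53, a small nucleolar RNA, rests on 3 to 12 reads a library.

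On the lower side 11 leading genes are given, Tcf15, Mest, Mir343, Tagln, Cyr61, Ak4, Acta2, Ptges, Peg10, Lgmn and Gadd45b. Limma called Tcf15 and Mest, and 6 of the 11 had an unadjusted p under 0.05, or 9 with the replicate block. Of the 11, 7 pointed the same way in all 4 pairs of 0 and 24 h, and 3 did so in 3 of them. Of the non-overlapping lower genes, of any level and size of difference, 31.8% did so in all 4, so here too the shares are not like for like. Lgmn, a lysosomal protease, stood at 14.1 and 16.9 FPKM in WT and 7.805 and 10.8 in delta (−0.69 ± 0.19, unadjusted p of 0.0058, limma adjusted p of 1). Ak4, an adenylate kinase of the mitochondrion, stood at 41.9 and 58.7 in WT and 25.6 and 32.9 in delta. Their differences were −0.78 and −0.69 in pair 1 and −0.61 and −0.82 in pair 2.

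The other lower genes have varied roles. Gadd45b, a stress-induced adaptor, stood at 15.8 and 20.9 FPKM in WT and 10.1 and 12.5 in delta. Ptges, which makes prostaglandin E, stood at 4.11 and 6.93 in WT and 2.22 and 3.71 in delta. Cyr61, a matricellular protein and a classic YAP target, stood at 20.4 and 22.6 in WT and 11.2 and 13.4 in delta. Mir343 rests on 2 to 9 reads a library. Tagln and Acta2, both of smooth muscle and myofibroblasts, belong with the fibroblast markers. Tagln stood at 21.1 and 2.91 FPKM in WT and 0.506 and 1.33 in delta, and Acta2 at 13.98 and 0.787 in WT and 0.090 and 0.122 in delta. Their pair 1 differences were −3.88 and −3.78, and their pair 2 differences −0.75 and −0.67, so WT replicate 1 set most of their size.

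**Figure D3:**
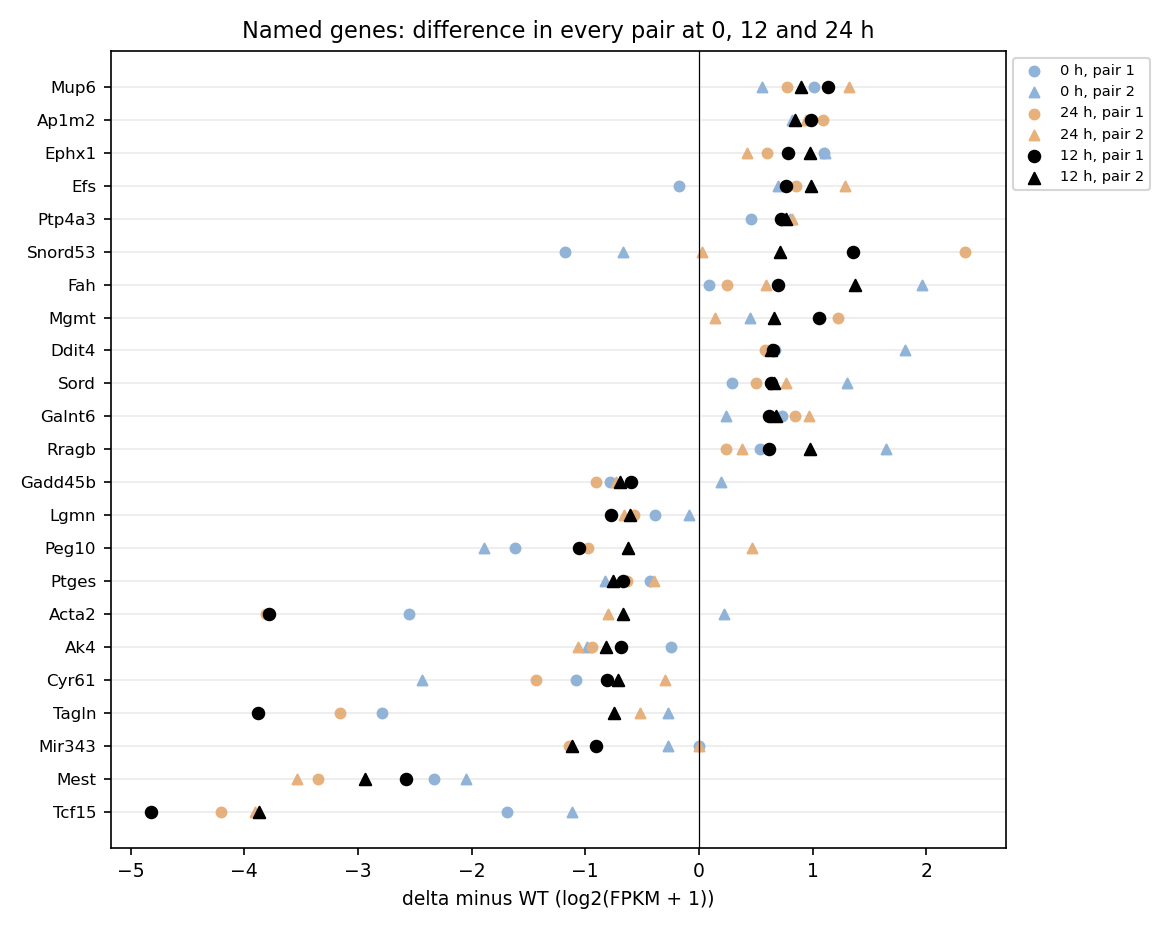
Difference between delta and WT in log2(FPKM + 1) (horizontal axis) for the 23 genes named as leading (vertical axis), with the 12 h pairs in black and the 0 h and 24 h pairs in blue and orange; circles are pair 1 and triangles pair 2. Tcf15 and Mest stand apart, Tagln and Acta2 differ strongly only in pair 1, and 10 of the 12 higher genes lie to the right of 0 in all 6 pairs.

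A block of neighbouring genes on chromosome 14 was higher in pair 2 at 12 h. When the tested genes were taken along each chromosome in runs of 25, giving 557 runs, 8 adjoining runs on chromosome 14 (200 genes, from 50765415 to 70636048, mm10) had pair 2 medians of 0.44 to 0.77. The limits of this segment were chosen after the values were seen. Its median was 0.61 in pair 2 and 0.10 in pair 1. In pair 2, 190 of the 200 genes lay above 0, and in pair 1, 132. Runs elsewhere ranged from −0.49 to 0.40 in pair 2, and over all runs pair 1 ranged from −0.15 to 0.21.

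The segment was low in WT replicate 2, while the other 3 libraries at 12 h lay close together. Relative to the mean of all 12 libraries its median was −0.38 in WT replicate 2, 0.12 in WT replicate 1, and 0.20 in each delta library. Its median difference between WT replicates 2 and 1 was −0.55 log2 units at 12 h, −0.37 at 0 h and −0.52 at 24 h, whereas the delta replicates differed by −0.02 at 12 h. Groups did not overlap for 90 higher genes of the 200 (45.0%) and for 1 lower gene, against 16.8% and 15.2% of all tested genes. Efs, the formative gene Sall2 and the p53 target Tnfrsf10b lie in it, so list medians were also taken without its genes. Among the 12 h libraries, WT replicate 2 also stood apart in histone genes. The median of 35 tested ones was 0.60 above their mean over all libraries there, and pair 2 gave −0.50 against 0.01 in pair 1. Unlike the segment, this was not seen in WT replicate 2 at 0 h (−0.32) or 24 h (−0.06). Delta replicate 1 at 0 h was higher still, at 0.99. The part that the segment and the histone genes play in other pair 2 differences was not tested.

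**Figure D4:**
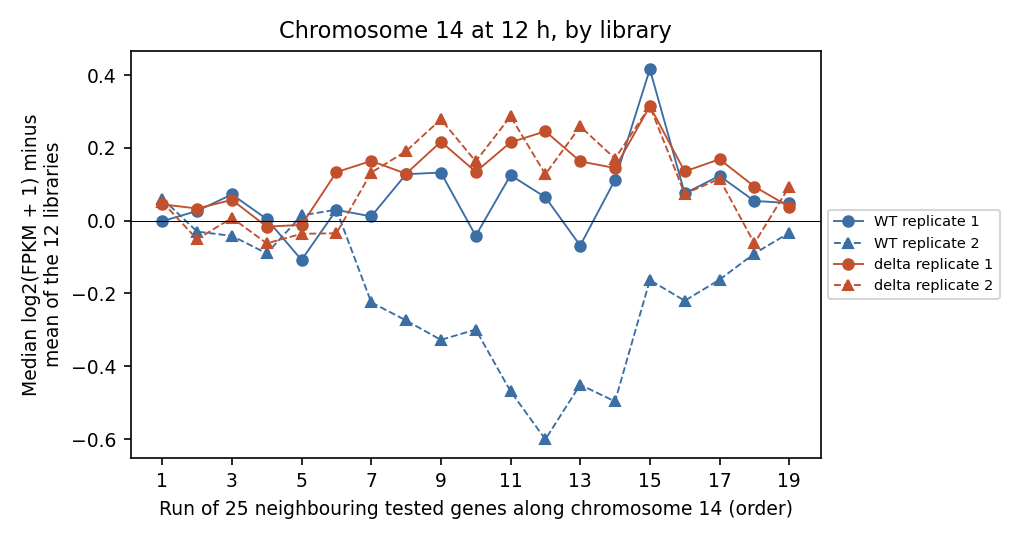
Median level of each run of 25 neighbouring tested genes along chromosome 14 (horizontal axis, runs in order) in the 4 libraries at 12 h, as log2(FPKM + 1) minus the mean of the 12 libraries (vertical axis). WT replicate 2 lies below the other 3 libraries over the adjoining runs of the segment, where the other 3 run close together.

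The E protein partners of Tcf15 changed little, while the Id genes went both ways. Of 8 tested genes in a list of Tcf15, the E proteins and the Id proteins, only Tcf15 was called. The E protein genes Tcf3, Tcf4 and Tcf12 differed by −0.19, 0.02 and 0.04. Id1, a target of BMP signalling, stood at 14.2 and 7.34 FPKM in WT and 6.57 and 8.44 in delta, so that only WT replicate 1 was high. Id3 stood at 37.3 and 27.1 in WT and 40.4 and 39.2 in delta, the highest difference of the list (0.32) and without overlap. Id4 was lower, at 6.06 and 5.79 in WT and 4.11 and 5.33 in delta (−0.28).

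Naive pluripotency genes were balanced at 12 h. The 21 tested genes had a median of 0.00 log2 units (−0.10 in pair 1 and 0.03 in pair 2), with 10 above and 11 below 0, and limma called none of them, with none at an unadjusted p under 0.05. Both pairs were lower for 6 of them and higher for 5, against 24.4% and 28.9% of all tested genes. The group without overlap on the lower side included Tfcp2l1, a self-renewal factor, at 24.4 and 30.02 FPKM in WT and 17.5 and 22.7 in delta. It also included Tbx3, a T-box factor, at 31.1 and 33.7 in WT and 23.4 and 28.1 in delta, and Esrrb, an orphan nuclear receptor, at 91.2 and 89.3 in WT and 72.9 and 83.8 in delta. On the higher side, Fgf4, the FGF made by stem cells themselves, stood at 118.7 and 110.9 in delta against 102.5 and 91.3 in WT, and Zfp42 at 449.3 and 403.7 against 389.4 and 340.3. At 24 h the same list had a median of −0.46, with Nanog at −1.01. The 13 general pluripotency genes had a median of 0.05 at 12 h.

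The formative genes were higher mainly against WT replicate 2. The 16 genes had a median difference of 0.30, 14 above 0, and limma called none of them, with none at an unadjusted p under 0.05. The median was 0.07 in pair 1 and 0.48 in pair 2. WT replicate 2 was the lowest of the 4 libraries for 15 of the 16 genes. Groups did not overlap for 1 of the 16 on the higher side, against 16.8% of all tested genes. The list median was 0.68 without WT replicate 1 and −0.12 without WT replicate 2, so its direction depended on that library. Without the genes of the chromosome 14 segment it was 0.28.

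Single formative genes show this pattern. Otx2, a homeobox factor that directs the formative state, stood at 29.5 and 10.9 FPKM in WT and 38.2 and 23.7 in delta. Pou3f1, a POU factor induced with it, stood at 6.93 and 2.60 in WT and 7.94 and 3.96 in delta. Dnmt3a, a de novo DNA methyltransferase, stood at 13.4 and 3.45 in WT and 13.7 and 8.79 in delta. In each, WT replicate 2 lay below the other 3 libraries and the groups overlapped. Sox3, a SoxB1 factor, was the 1 gene without overlap, at 2.78 and 1.84 in WT and 3.77 and 3.27 in delta (0.46, unadjusted p of 0.12). Sall2, a zinc finger factor in the chromosome 14 segment, stood at 4.60 and 1.16 in WT and 6.32 and 4.39 in delta. The list median was −0.03 at 0 h and 0.40 at 24 h.

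Pathway read-outs had small medians, and that of LIF/STAT3 was below 0 in both pairs. Of the 5 lists limma called 0 genes, with 0 at an unadjusted p under 0.05. For 16 FGF/ERK feedback genes and targets the median was −0.09, at −0.23 in pair 1 and 0.06 in pair 2, and 12 lay below 0. Groups did not overlap for 5 of them on the lower side and 0 on the higher side, against 15.2% and 16.8% of all tested genes. Etv4, an ETS factor of that pathway, stood at 54.2 and 71.1 FPKM in WT and 41.8 and 47.9 in delta, and Spry4, a feedback inhibitor, at 26.7 and 21.9 in WT and 19.4 and 19.8 in delta. Dusp6, a phosphatase of ERK, overlapped at 44.3 and 42.4 in WT and 46.9 and 39.8 in delta. The 10 WNT targets had a median of 0.05, the 10 Nodal/Activin genes 0.03, the 10 BMP genes −0.03 and the 10 LIF/STAT3 genes −0.13. The LIF/STAT3 median was −0.11 in pair 1 and −0.07 in pair 2. Both pairs were lower for 5 of its genes and higher for 0, against 24.4% and 28.9% of all tested genes. The FGF/ERK median was 0.06 without WT replicate 1, and the WNT median was −0.16 without WT replicate 2. Bcl3, a STAT3 target, was the lowest of the LIF/STAT3 list, at 3.32 and 5.18 FPKM in WT and 2.17 and 2.05 in delta (−0.73, unadjusted p of 0.057).

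The p53 targets were shifted upward in both pairs without a call. The 16 genes had a median of 0.31, at 0.49 in pair 1 and 0.17 in pair 2, and 15 lay above 0. Both pairs were higher for 13 of the 16, against 28.9% of all tested genes, and groups did not overlap for 9, against 16.8%. A WT library was the lowest of the 4 for all 16. Limma called none of them, with none at an unadjusted p under 0.05. The median was 0.14 without WT replicate 1 and 0.56 without WT replicate 2, and 0.29 without the gene in the chromosome 14 segment.

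Members of different function shared the p53 pattern. Ccng1, a cyclin of the p53 feedback loop, stood at 65.7 and 86.8 FPKM in WT and 118.7 and 105.7 in delta. Trp53inp1, a stress-induced cofactor, stood at 27.2 and 37.0 in WT and 46.5 and 46.6 in delta. Eda2r, a receptor of the TNF family, stood at 6.35 and 8.06 in WT and 12.1 and 10.9 in delta (0.61, unadjusted p of 0.14). The apoptosis gene Bbc3 stood at 18.0 and 26.0 in WT and 26.7 and 30.2 in delta. Cdkn1a, the cell cycle inhibitor most used as a p53 read-out, overlapped at 21.8 and 31.2 in WT and 26.7 and 31.0 in delta (0.14). Mdm2, the ubiquitin ligase of p53, overlapped at 24.5 and 37.4 in WT and 36.0 and 38.8 in delta. The list median was 0.35 at 0 h and 0.37 at 24 h, in other libraries of the same lines.

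Of the cell cycle lists, 14 of 16 genes of G2 and mitosis lay above 0, with a median of 0.13 (0.08 in pair 1 and 0.23 in pair 2). Both pairs were higher for 9 of the 16 and lower for 2, against 28.9% and 24.4% of all tested genes. WT replicate 2 was the lowest of the 4 libraries for 11 of the 16. The median was 0.24 without WT replicate 1 and 0.09 without WT replicate 2. Top2a, a topoisomerase, stood at 86.2 and 63.0 FPKM in WT and 102.7 and 86.6 in delta, and Ccnb1, a mitotic cyclin, at 74.9 and 66.7 in WT and 93.6 and 77.4 in delta. Aurkb, a mitotic kinase, was lower at 35.2 and 38.5 in WT and 30.8 and 29.3 in delta. The 15 genes of G1 and S phase had a median of −0.07. Neither list held a call or an unadjusted p under 0.05 in limma.

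Matrix genes held no call. Of 14 basement membrane and matrix genes, 13 lay below 0, with a median of −0.29 (−0.46 in pair 1 and −0.09 in pair 2), and limma called none of them, with none at an unadjusted p under 0.05. Groups did not overlap for 7 on the lower side, against 15.2% of all tested genes. Lamb1, a laminin chain, stood at 3.21 and 3.88 FPKM in WT and 1.57 and 2.32 in delta. Nid1, which links laminin to collagen, stood at 46.4 and 38.5 in WT and 29.9 and 35.1 in delta. Col4a1, a chain of collagen IV, stood at 2.90 and 0.928 in WT and 0.657 and 0.672 in delta. Lamb1 was low in both delta libraries to a similar degree, whereas Col4a1 was high in WT replicate 1 alone. The list median was −0.21 without WT replicate 1, −0.16 without delta replicate 1 and −0.47 without delta replicate 2.

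Fibroblast markers moved with WT replicate 1. The 11 tested genes had a median of −0.69, at −1.28 in pair 1 and −0.09 in pair 2, and WT replicate 1 was the highest of the 4 libraries for 10 of them. Without that library the median was 0.00. Col1a1, a fibrillar collagen of fibroblasts, stood at 4.38 and 0.338 FPKM in WT and 0.051 and 0.197 in delta. The marker sum was also 21.7 FPKM in WT replicate 1 at 0 h and 43.3 at 24 h, against 1.89 to 7.03 in the other WT and delta libraries of those times. In bulk RNA, fewer cells of a type and less RNA per cell cannot be told apart. Of the 16 cytoskeleton genes of SRF and YAP, which include Tagln and Acta2, 10 lay below 0, with a median of −0.25 and of 0.02 without WT replicate 1. The part of these markers in the matrix values was not tested.

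All 6 tested genes of the primitive endoderm list lay below 0, with a median of −0.51 (−0.88 in pair 1 and −0.19 in pair 2), and 5 of them, Col4a1, Col4a2, Lama1, Lamb1 and Sparc, are matrix genes as well. The median was −0.17 without WT replicate 1. The defining markers of that lineage summed to 0.253 to 0.528 FPKM in the 12 h libraries, and Foxa2 was listed at 0 in all 4. The 6 tested primitive streak and mesoderm genes, of 17 listed, had a median of −0.23. In that list Eomes, a T-box factor of the streak, stood at 2.02 and 0.941 FPKM in WT and 2.16 and 1.97 in delta, with WT replicate 2 alone low.

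Epithelial junction genes had a median of 0.04 over 15 genes, with WT replicate 2 lowest for 13 of them. Epcam, an epithelial adhesion molecule, stood at 52.2 and 23.3 FPKM in WT and 64.5 and 54.8 in delta, and Crb3, a polarity protein, at 4.41 and 2.69 in WT and 6.67 and 5.84 in delta. Cdh1, the main epithelial cadherin, overlapped at 135.6 and 94.8 in WT and 128.8 and 105.9 in delta.

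Of the 32 lists with at least 3 tested genes, 19 had a median that changed sign when 1 of the 4 libraries was left out, several of those that follow included. The medians were 0.09 for 16 glycolysis and hypoxia genes, −0.01 for 14 of cholesterol synthesis, −0.14 for 13 genes of the integrated stress response and amino acid supply, and 0.10 for 10 heat shock genes. They were 0.11 for 9 DNA methylation genes, 0.04 for 12 Polycomb genes, 0.07 for 16 ribosomal protein genes, −0.05 for 11 germline genes and −0.01 for 8 immediate early genes. Without WT replicate 1 the median was 0.05 for the stress response, 0.08 for the immediate early genes, 0.11 for the germline genes and 0.12 for cholesterol synthesis. Without WT replicate 2 it was −0.13 for DNA methylation and −0.01 for glycolysis and hypoxia, and without delta replicate 2 it was 0.29 for the germline genes. The 7 tested mitochondrially encoded genes had a median of −0.14, and it was −0.90 without WT replicate 1 and 0.66 without WT replicate 2. The 6 tested trophoblast genes had a median of −0.11, at −0.50 in pair 1 and 0.23 in pair 2, and the 3 neural genes one of −0.12, at −0.08 and 0.70. Limma called 0 genes of these 12 lists, with 0 at an unadjusted p under 0.05, and 0 of the 9 listed two-cell-like genes were tested. Across all 33 lists, Tcf15 and Mest were the only genes called.

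**Figure D5:**
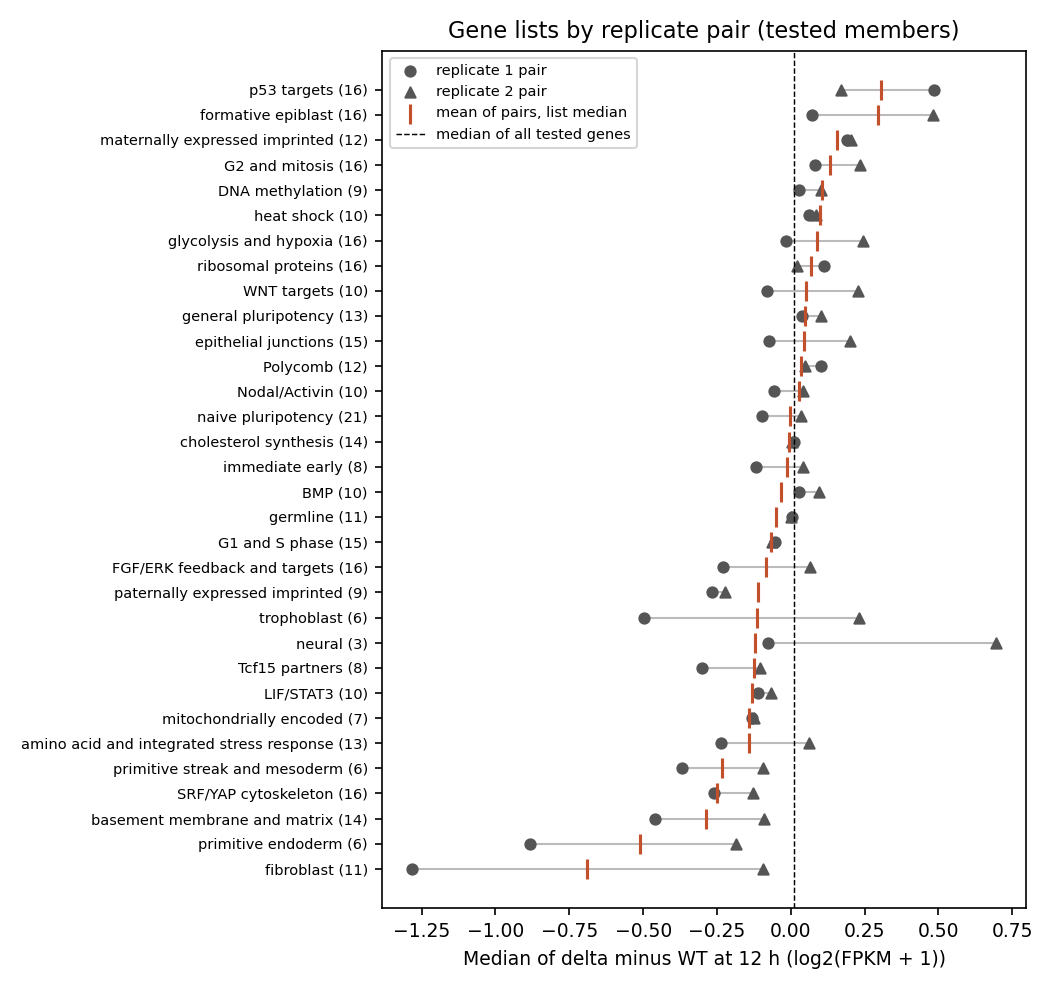
Median difference between delta and WT at 12 h in log2(FPKM + 1) for each gene list with at least 3 tested genes, in pair 1 (circles), pair 2 (triangles) and for the mean of the pairs (red bars), with the number of tested genes in brackets and the median of all tested genes as a dashed line. The p53 targets lie to the right of the line in both pairs, whereas the formative genes do so mainly in pair 2 and the fibroblast genes lie to the left mainly in pair 1.

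Set against the other times, the 12 h differences were more alike within a replicate number than across numbers. Across the 13981 genes, pair 1 at 12 h had a Pearson correlation of 0.29 with pair 1 at 0 h and 0.37 with pair 1 at 24 h. With pair 2 at 0 and 24 h, the correlation was 0.04 and 0.14. Pair 2 at 12 h correlated at 0.37 and 0.45 with pair 2 at 0 and 24 h, and at −0.05 and 0.15 with pair 1. These are descriptions over genes that share their libraries' preparation. Limma called 1 gene at 0 h and 1 at 24 h, Mest each time (0.00715% of tested genes). The difference at 12 h against that at 0 h gave 0 calls (0.0%) with limma and 86 genes at an unadjusted p under 0.05 (0.615%). For 24 h against 12 h there were 0 calls (0.0%) and 62 such genes (0.443%). The voom fit also gave 0 calls for the change from 0 to 12 h.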

How the data were processed

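Per the labels' protocols, libraries were prepared with NEBNext Ultra II from mRNA that oligo-dT beads captured out of 1 µg of RNeasy Plus purified RNA. The submitters' processing notes name cutadapt, STAR 2.5.2b, featureCounts 1.5.1, edgeR 3.16.5 and build mm10, with no role or order. FPKM values were used as the authors deposited them. Low FPKM values were whole multiples of 1 read, and with GENCODE M21 or inferred lengths they gave whole reads (tolerance 0.01) for 100% of 28657 genes. These reads served for depth and for a voom fit. At 12 h, 1 read per kilobase was worth 0.0575 to 0.100 FPKM.

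Genes at 1 FPKM or more in at least 2 libraries (13981) entered limma 3.58.1 (R 4.3.3) as log2(FPKM + 1), with 6 group means, moderated variances with a trend (6 residual, 3.11 prior degrees of freedom) and 2-sided p-values adjusted by Benjamini-Hochberg. The model was run on simulated data with independent noise. That simulation held no replicate effect, so it cannot show how the model performs on libraries like these. Replicate numbers come from the labels. Deviations of same-numbered WT and delta libraries correlated at 0.70, 0.28 and 0.37 at 0, 12 and 24 h, so the numbers pair the samples. The main model and the fits with libraries left out took no account of this pairing, and a replicate block entered only as an alternative. The 23 alternatives also covered the pseudocount, filter, scaling, variance model and libraries left out. Named genes were Tcf15, every called gene, the 12 leading genes each way and up to 4 members of each list; 1 gene is not reported here. The 33 lists held 416 genes, 415 of them in the table. Members, lists and rules were chosen with earlier results of these data known. Figures used Python 3.11.15 and matplotlib 3.10.9.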

Additional observations from a re-analysis of the deposited data

How the results depend on the processing

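The sizes of the Tcf15 and Mest differences held, while the Tcf15 call at 12 h often did not. Against 2 genes called, the count was 0 with the 12 h libraries alone (which leaves fewer libraries to estimate the spread), 1 with libraries centred on their median, with quantile normalization, with robust variances and without the 0 h libraries, and 1 with voom weights, a setting chosen after seeing the data. Leaving out single libraries gave 0 to 2. Tcf15 missed the threshold at −4.34 with no FPKM filter (adjusted p of 0.16), −4.35 centred (0.090), −4.43 quantile (0.060), −4.34 robust (0.060), −4.34 with 12 h alone (0.75), −4.34 without 0 h (0.080) and −5.25 with voom (0.21). Without single libraries it was −4.83 to −3.86. Mest missed it at −2.76 with 12 h alone (0.75) and was −2.99 to −2.53 without single libraries. The cause of these losses was not tested. With the replicate block the count was 2, with Tcf15 at an adjusted p of 0.0014 and Mest at 0.0021, and a block within each time gave 0.019 for both; the block changed no call, while genes at an unadjusted p under 0.05 rose from 70 and 54 to 168 and 116. Without a filter the called genes were Mest and Gm44066, and without delta 12 h replicate 1 they were Mest and Mir6948. For the change of the difference, against 0 calls, no filter gave 4 from 0 to 12 h and 6 from 12 to 24 h, and single libraries 0 to 1. None of the leading genes, Tcf15 and Mest among them, changed direction under these alternatives. Other named members of the lists were not followed through them. Of 32 list medians, none of them tested, 19 changed sign without at least 1 of the 4 libraries at 12 h (10 without WT replicate 1, 9 without WT replicate 2, 6 without delta replicate 1 and 3 without delta replicate 2). The formative median went from 0.30 to −0.12 and the mitochondrially encoded one from −0.14 to 0.66 without WT replicate 2, and the cytoskeleton median from −0.25 to 0.02 without WT replicate 1.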
